A study of Mus musculus with 20 samples.

Results

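The control serum cultures of a study of irradiated mouse serum were compared between its 20-day and its 10-day set. All arrays held total RNA of embryonic fibroblasts of the mouse (MEFs), primary cells from minced embryos, kept for 24 hours in medium with serum from female mice of the inbred strain C3H/HeN. The arrays were chosen by their titles alone, 5 with serum of non-irradiated mice of the 10-day set and 5 with serum of non-irradiated mice of the 20-day set, out of 20 arrays in the series. Both groups are given as 0 Gy, so that the labels distinguish them only by the number of days. The other arrays, 5 with serum of mice given 4 Gy (10-day set) and 5 with serum of mice given 8 Gy (20-day set), under a regime the labels write as L/MDR, enter here only as a second pair of groups that differ in the same number of days. The labels do not say what the days count, which mice, embryos or passages the fibroblasts came from, or whether each replicate had its own culture or its own donor mouse. P-values therefore measure how these arrays vary, and that spread may be technical. The comparison asks how far fibroblast cultures that received unirradiated serum differed between the sets.

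The sets also differed in how the arrays were run. The 20 arrays lay on 7 slides, no slide held arrays of both control groups, and all arrays of a set shared a scan day, so set, slide and scan day cannot be told apart. The 75th percentile of intensity, to which each array was scaled, was 1316 ± 109 units at 10 days and 916 ± 134 at 20 days (SD, n = 5; exact permutation test, two-sided, p = 0.00794, the smallest that 5 against 5 arrays can give). The share of probes well above background was 64.7% ± 2.22 and 60.2% ± 3.02 (SD, n = 5; exact permutation p = 0.0397). The part of either in the results was not tested. Correlations between arrays were 0.993 to 0.997 within the 10-day control group, 0.977 to 0.993 within the 20-day control group and 0.941 to 0.953 between them.

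Embryonic fibroblast cultures are a mixed outgrowth of embryo tissue. Besides collagen-secreting mesenchymal cells, such cultures can hold myoblasts, cartilage and fat precursors, and macrophages of embryonic origin, which live on colony stimulating factor 1 made by the fibroblasts and can fuse into multinucleated cells. Embryonic mesenchyme expresses imprinted growth genes, insulin-like growth factors and elastic fibre proteins strongly. Each cell type can be followed in bulk RNA by genes that the other cells hardly use, although fewer cells of a type and less RNA per cell cannot be told apart in such data.

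Signals are log2 intensities from which the 75th percentile of each array was subtracted, so that 0 is that percentile, and changes are log2 differences, 20-day minus 10-day, with the standard error of a limma fit and a p-value adjusted over 20228 genes. Of these genes, 13425 (66.4%) passed an adjusted p of 0.05, 7474 of them (36.9%) higher and 5951 (29.4%) lower at 20 days. At least 2-fold changes numbered 4449 (22%), with 2221 genes higher (11%) and 2228 lower (11%), and 140 genes were at least 16-fold higher against 26 that were at least 16-fold lower. The control arrays of the sets did not overlap for 9975 genes (49.3%), 28.2% of all genes with higher and 21.2% with lower 20-day arrays. Since so many genes passed, the counts of gene groups below are to be read against these shares. The median change of all genes was 0.07. A gene entered the test if at least 1 group had its probe well above background on each measured array, so a gene could enter through the set where it was high. Beside each list with such members, the counts among members bright (well above background on all arrays) in both control groups are therefore given. Over 16920 such genes, 40.5% were higher and 27.4% lower at 20 days.

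The fibroblast label was borne out on every array. All 10 fibroblast markers, among them the collagen genes Col1a1, Col1a2 and Col3a1, were well above background on all 10 control arrays, and their summed signal was 10.2 to 10.3 at 10 days and 9.51 to 9.76 at 20 days on the log2 scale.

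Genes of macrophages were far higher in the 20-day control cultures. Of 23 macrophage identity genes tested, 22 were higher and 1 lower, with a median change of 4.04 (3.87 with genes that were dim at 10 days set at their lower bound), and 20 of the 23 were bright in both control groups, of which 19 were higher. Tyrobp, which encodes the signalling adaptor DAP12 of myeloid receptors, had signals of −2.27, −2.79, −2.27, −2.35 and −2.52 on the 10-day control arrays. On the 20-day control arrays it stood at 3.44, 3.55, 3.72, 3.65 and 3.23. The lowest 20-day array was thus far above the highest 10-day array, and Tyrobp rose by 5.96 ± 0.13 (adjusted p = 4.32e-17).

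Csf1r, the receptor for the colony stimulating factor that keeps macrophages alive, had signals of −2.29, −2.58, −2.20, −2.54 and −2.58 at 10 days and 1.21, 0.91, 0.99, 0.48 and 0.60 at 20 days. The groups did not overlap, and the change was 3.27 ± 0.13 (adjusted p = 9.45e-14); other Csf1r probes gave 2.55 and 2.62. The transcription factor gene Spi1 (PU.1), which drives myeloid fate, was not well above background on any 10-day control array and was so on all 5 of the 20-day group, at least 5.66-fold higher (adjusted p = 2.24e-08). Ptprc, the pan-leukocyte surface phosphatase CD45, changed by 5.45 ± 0.11, the lysozyme gene Lyz2 by 5.22 ± 0.16, the pore protein gene Mpeg1 by 4.21 ± 0.12 and the endotoxin co-receptor gene Cd14 by 3.83 ± 0.10 (highest of these adjusted p, 1.61e-15). Adgre1, the macrophage surface protein F4/80, was measured on 5 arrays at 10 days and on 3 at 20 days, since its spots were left out as outliers on the others, and changed by 5.49 ± 0.15 (adjusted p = 1.09e-14). Mertk, a receptor for dead cells, was the 1 identity gene that was lower (−0.55 ± 0.11, adjusted p = 0.000262), with arrays that overlapped.

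Summed over the 9 macrophage markers tested, the log2 signal was 0.56 to 1.08 on the 10-day and 5.21 to 5.73 on the 20-day control arrays. At 10 days 7 of these markers were well above background on all arrays measured and 1, Spi1, on none. Macrophage transcripts were therefore measurable in both sets, at levels that did not overlap.

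**Figure D1:**
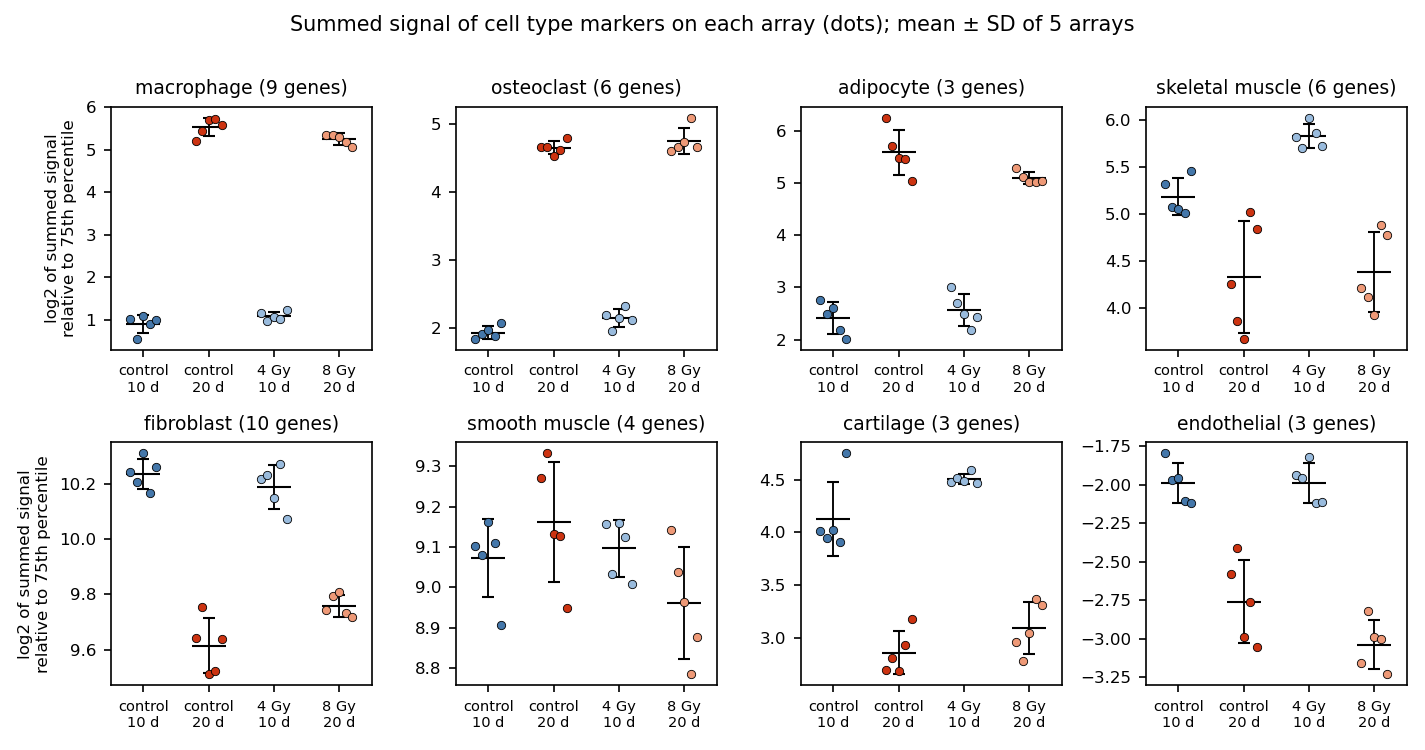
Log2 of the summed signal of the tested markers of 8 cell types (vertical axis, relative to the 75th percentile) on each of 20 arrays (dots), with mean ± SD of the 5 arrays of each group; left-out spots count as absent. Macrophage, osteoclast and adipocyte sums are higher on all 20-day arrays than on any 10-day array, fibroblast and cartilage sums lower, and smooth muscle sums overlap. Linear signals are added, so the brightest marker weighs most. In the adipocyte sum this is Fabp4, which macrophages make as well (mean 2.40 at 10 and 5.58 at 20 days in control serum). Adipoq and Plin1 lay at −2.22 and −4.31 in the 20-day control group.

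Cell surface receptors of myeloid cells followed the identity genes. All 14 Fc gamma and paired receptors tested were higher (median 3.61; 8 were bright in both groups, all higher), as were all 8 C-type lectins tested (median 5.32, or 4.62 at bounds; 5 bright in both). Clec4a2, an inhibitory lectin receptor of dendritic cells and macrophages, had the largest increase of the named genes that were bright in both groups. It measured −4.70, −4.37, −4.21, −4.51 and −4.46 at 10 days and 2.58, 2.52, 2.59, 2.36 and 2.27 at 20 days. The change of 6.92 ± 0.11 (adjusted p = 1.46e-18) was many times the spread within either group. The inhibitory receptor gene Pirb rose by 5.41, Trem2, a lipid-sensing receptor that signals through DAP12, by 4.77, and the Fc receptor genes Fcgr2b and Fcgr3 by 4.85 and 4.10. Among the lectins, Clec4d rose by 5.65, Clec5a by 5.05, and Clec10a was at least 20.2-fold higher. Cd72, an inhibitory receptor of B cells that macrophages also carry, rose by 5.40.

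The start sites of 2 of these receptor genes show the word GAGGAAGT, which matches the core bound by PU.1, in the 250 bases before the start. They are printed as genes that were higher here and hold the word, which most genes of the myeloid lists lack. Capitals mark the word on either strand. Spi1 was higher in the same cultures, but whether PU.1 acts on these genes was not tested. The sequences are RefSeq's, build GRCm38.p6 (chr7:3720383-3720632, minus strand, and chr4:43454627-43454876, minus strand).
Pirb: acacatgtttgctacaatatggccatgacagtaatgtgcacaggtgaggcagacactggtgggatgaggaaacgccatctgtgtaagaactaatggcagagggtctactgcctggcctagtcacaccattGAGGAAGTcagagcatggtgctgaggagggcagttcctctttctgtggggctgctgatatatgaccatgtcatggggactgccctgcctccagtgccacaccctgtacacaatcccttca
Cd72: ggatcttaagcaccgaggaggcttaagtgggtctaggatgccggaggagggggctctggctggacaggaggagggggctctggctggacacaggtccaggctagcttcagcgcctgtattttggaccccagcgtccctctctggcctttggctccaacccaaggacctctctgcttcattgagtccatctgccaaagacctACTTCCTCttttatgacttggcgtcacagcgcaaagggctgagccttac
In Pirb the word began 120 bases before the start, and in Cd72 its reverse complement, ACTTCCTC, began 49 bases before it. Among 49 genes of the myeloid lists with a window in the promoter table, 3 (6.12%) held the word, against 2.79% of 27025 genes in the table. Pirb was 1 of the 3, while Cd72 belongs to none of those lists. Such a match is a description of letters and not a bound site.

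The bactericidal machinery of phagocytes was higher too. All 6 subunits of the NADPH oxidase, which makes superoxide in the phagosome, were higher at 20 days (median 4.09, or 3.52 at bounds; 5 were bright in both groups, all higher), with Rac2 at 5.29, Ncf4 at 4.86 and Ncf1 at 3.20. All 8 leukocyte integrins tested were higher (median 2.49, or 1.67 at bounds; 4 bright in both), among them Itgam (4.43 ± 0.26) and Itgb2 (3.89 ± 0.16), the chains of complement receptor 3. Itgax, the CD11c chain, was at least 3.3-fold higher and was well above background on 3 of the 20-day arrays. Of 13 Toll-like receptor genes and adaptors, all bright in both groups, 8 were higher and 4 lower. The receptors for bacterial lipids accounted for part of the increases, with 2.03 for Tlr2, 1.38 for Tlr4 and 2.10 for Ly96, the co-receptor of Tlr4.

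Secreted products of macrophages divided by family. Of 10 CXC chemokines tested 6 were higher and none lower (median 0.83), and of the 8 bright in both 5 were higher. Of 14 CC chemokines and receptors tested, 11 were higher and none lower (median 3.85, or 2.94 at bounds; 8 of the 11 bright in both were higher), led by the chemokine genes Ccl9 (4.86), Ccl3 (4.70), Ccl6 (4.08) and Ccl4 (3.62). The C1q chains, which start the classical complement pathway and are made mainly by macrophages, rose by 4.07 (C1qa), 3.23 (C1qb) and 4.25 (C1qc), and properdin (Cfp) by 3.70; of 17 complement genes 13 were higher and 2 lower (median 0.90), and of the 15 bright in both 11 were higher. Of 10 inflammatory cytokines tested 5 were higher and 3 lower, and of the 7 bright in both 4 and 2. Tnf was at least 7.75-fold higher and Il18 rose by 1.77, whereas Csf3, the granulocyte growth factor, was not well above background at 20 days and at least 1.49-fold lower. Interferon-stimulated genes (32 tested) were mixed, with 14 higher, 4 lower and a median of 0.49 (29 bright in both, 14 higher and 3 lower); Trim30a, induced by interferon, had 3.38.

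Osteoclasts and macrophage giant cells arise by fusion of such cells, and genes of that programme had some of the largest changes of all. Dcstamp, a membrane protein required for fusion, had signals of −7.86, −7.83, −7.90, −6.96 and −6.67 at 10 days, none well above background. At 20 days the signals were 0.11, 0.19, 0.33, −0.35 and 0.00, near the 75th percentile of the array. Dcstamp was at least 95.4-fold higher (adjusted p = 1.93e-14), the highest bound of any named gene.

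Acp5, the tartrate-resistant acid phosphatase that stains osteoclasts, measured −3.06, −3.62, −3.37, −3.59 and −4.0 at 10 days and 3.06, 2.46, 2.67, 1.96 and 2.19 at 20 days. It rose by 5.99 ± 0.19 (adjusted p = 4.36e-15), with no overlap. The second fusion protein gene Ocstamp rose by 3.96 and the bone-degrading protease gene Ctsk by 2.25; the calcitonin receptor gene Calcr was at least 13.5-fold and the proton pump subunit gene Atp6v0d2 at least 17-fold higher. All 6 osteoclast markers were higher, of which 3 were well above background on all arrays and 3 on none at 10 days. Their summed log2 signal was 1.85 to 2.08 at 10 days and 4.54 to 4.80 at 20 days. Ctsk weighs most in this sum (mean 1.89 at 10 and 4.13 at 20 days), so the 10-day sum is mainly the signal of that gene. In the wider osteoclast list 9 of 15 genes were higher and 3 lower, and of the 12 bright in both 6 and 3. Itgb3, the osteoclast integrin chain that fibroblasts also make, was among the lower ones (−0.49 ± 0.14, adjusted p = 0.00505).

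Lysosomal proteases and lipid handling genes changed in the same direction, with smaller medians. Of 13 cathepsins and related genes 10 were higher and 2 lower (median 0.87; 9 and 2 of the 12 bright in both). Ctss, the cathepsin of antigen-presenting cells, rose by 5.22 ± 0.11. Antigen presentation genes moved less. Of 4 MHC class II genes tested 2 were higher and none lower (median 0.56), and of the 3 bright in both 1 was higher. Of 11 MHC class I and immunoproteasome genes, all bright in both, 5 were higher and 3 lower (median 0.22), near the shares of all genes. Of 15 scavenger and lipid handling genes 10 were higher and 2 lower (median 1.79; 7 and 2 of the 12 bright in both), among them the scavenger receptor gene Msr1 (4.64), Gpnmb, a lysosomal glycoprotein of foam cells (4.04), and Apoe (1.79). Of 29 lysosomal membrane and pump genes 17 were higher and 8 lower, with a median of 0.54.

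Markers of other blood cells gave few measurable genes, apart from those of platelets. Of 9 NK cell genes on the array none entered the test, and of 12 T cell genes 4 did. Of these 4, 1 was higher (1.99) and none lower, and none of the 2 bright in both groups passed. Of 3 B cell genes tested 1 was higher and 1 lower (1 and 0 of the 2 bright in both). Of 2 mast cell and basophil genes tested 1 was higher (1.72), the 1 that was bright in both. Cd3g and Cd8a were not well above background on any control array, nor were the B cell gene Ms4a1, the neutrophil elastase gene Elane or the mast cell gene Cpa3. Cd3e, which was measurable on all arrays, did not pass the test (−0.29 ± 0.36, adjusted p = 0.485). Of 4 neutrophil genes tested, none bright in both groups, 3 were higher. The neutrophil and monocyte gene S100a8 was at least 4.83-fold higher, Mpo rose by 1.11 ± 0.16, and the partner of S100a8, S100a9, was well above background on 1 control array. Of 6 megakaryocyte and platelet genes tested 3 were higher and 2 lower (2 and 2 of the 4 bright in both): the platelet chemokine gene Pf4, which macrophages also make, rose by 3.95 ± 0.20 and the receptor gene Treml1 by 3.04 ± 0.15, whereas Gp1bb changed by −1.14 ± 0.10 and Itga2b by −0.83 ± 0.15. All 4 erythroid genes tested, 1 of them bright in both groups, were higher, Hbb-bh1, an embryonic globin, by 2.42, Slc4a1 by 1.67, the erythropoietin receptor gene Epor by 1.19 and Hbb-bt by 0.58, at mean 20-day signals no higher than −3.32; the call on Hbb-bt was lost with slide as a random block and without 10-day array 1 or 3, and that on Slc4a1 with the 20-day arrays of 1 slide alone.

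Adipocyte genes formed a second group that was higher at 20 days. Of 15 tested, 11 were higher and 1 lower (median 2.32), and of the 10 that were bright in both groups 6 were higher. Adipoq, the fat cell hormone adiponectin, had signals of −8.22, −8.87, −8.19, −9.13 and −8.66 at 10 days, none well above background, and −2.23, −2.28, −2.38, −1.88 and −2.30 at 20 days. It was at least 19.8-fold higher (adjusted p = 9.69e-13), and the arrays of the groups lay far apart. The lipid droplet gene Cidec was at least 39.7-fold and the complement protease gene Cfd (adipsin) at least 9.41-fold higher. Pparg, the receptor that drives fat cell differentiation, rose by 2.32 ± 0.11, the lipid droplet coat gene Plin1 by 1.50 ± 0.27, and the fatty acid carrier gene Fabp4, which macrophages make as well, by 3.17 ± 0.19. Scd1, a fatty acid desaturase, was the 1 that was lower (−0.47).

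Genes of skeletal muscle went the other way. Of 32 sarcomere genes tested 21 were lower and 5 higher (median −0.95, or −0.84 at bounds), and of the 19 that were bright in both groups 9 were lower and 4 higher. Myog (myogenin), the transcription factor that starts muscle differentiation, had signals of −3.89, −3.79, −3.92, −4.03 and −4.0 at 10 days and −7.17, −7.40, −7.46, −7.38 and −8.06 at 20 days. It was well above background on all of the former and none of the latter, at least 4.36-fold lower (adjusted p = 7.86e-12).

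Myh3, the embryonic myosin heavy chain, measured −2.85, −2.72, −3.17, −2.51 and −2.77 at 10 days. At 20 days it measured −7.53, −7.92, −8.22, −8.76 and −8.66, not well above background on any array. It was at least 9.49-fold lower (adjusted p = 3.78e-13), and every 20-day signal lay below the lowest 10-day signal. The fast troponin gene Tnnc2 changed by −2.17 ± 0.18, the slow troponin gene Tnni1 by −2.97 ± 0.27 (−1.39 on another probe, which did not pass) and desmin (Des), the muscle intermediate filament, by −2.30 ± 0.10. Of 16 muscle regulators and fusion genes 10 were lower and 1 higher (median −0.72), and of the 10 bright in both 5 were lower and 1 higher. The exceptions included Cav3, a muscle caveolin (1.38 ± 0.12), and the slow troponin genes Tnnt1 (1.16 ± 0.08) and Tnnc1 (1.15 ± 0.14), which were higher with arrays that did not overlap. Myod1 and Ckm did not enter the test.

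The alpha-actin of skeletal muscle, Acta1, differed between the slides of the 20-day group. Its signals were 1.62, 1.44, 1.63, 1.67 and 2.34 at 10 days and −0.13, −1.06, −0.90, 2.50 and 1.15 at 20 days. The first 3 of the 20-day arrays, which shared a slide, were below every 10-day array, while of arrays 4 and 5, on another slide, the former lay above the highest and the latter below the lowest 10-day array. The change was −1.43 ± 0.49 (adjusted p = 0.0155) over all 5 arrays, −2.44 on the first slide and 0.09 on the other (adjusted p = 0.848), and the call was lost without 20-day array 2 or array 3. Actc1, the cardiac actin that embryonic skeletal muscle also uses, changed by −0.82 ± 0.21, or by −1.16 and −0.29 on these slides, and Mylpf, the fast light chain, by −0.50 ± 0.19, or by −0.81 and −0.05. Summed muscle markers ranged from 5.01 to 5.46 at 10 days and from 3.67 to 5.02 at 20 days. That sum is mainly the signal of Actc1 (mean 5.02 at 10 and 4.20 at 20 days).

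Muscle promoters are known for E-boxes, the sites of MyoD family factors, and for CArG boxes, the sites of serum response factor. The 250 bases before the starts of Acta1, Actc1 and Mylpf are shown since these markers, which split between the slides of the 20-day group, carry such words; capitals mark the E-box CAGCTG, which reads the same on both strands, and the CArG box. They are RefSeq sequences of GRCm38.p6 (chr8:123894776-123895025, minus strand; chr2:114052876-114053125, minus strand; chr7:127211358-127211607, plus strand).
Acta1: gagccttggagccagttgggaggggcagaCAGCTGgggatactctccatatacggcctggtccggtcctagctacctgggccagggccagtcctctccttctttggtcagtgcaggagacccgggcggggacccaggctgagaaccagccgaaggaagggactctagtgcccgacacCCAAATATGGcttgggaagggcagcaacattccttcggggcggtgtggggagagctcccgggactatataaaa
Actc1: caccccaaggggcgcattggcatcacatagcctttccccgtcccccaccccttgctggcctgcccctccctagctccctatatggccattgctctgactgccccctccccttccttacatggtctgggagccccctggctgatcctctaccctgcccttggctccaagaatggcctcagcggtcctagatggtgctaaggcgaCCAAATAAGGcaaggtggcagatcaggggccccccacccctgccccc
Mylpf: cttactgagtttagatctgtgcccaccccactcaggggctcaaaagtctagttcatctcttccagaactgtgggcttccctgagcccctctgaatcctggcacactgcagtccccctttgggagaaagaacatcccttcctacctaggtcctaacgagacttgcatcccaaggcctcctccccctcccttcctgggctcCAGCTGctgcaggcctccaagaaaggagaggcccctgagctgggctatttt
Acta1 held an E-box that began 221 bases and a CArG box that began 73 bases before the start, Actc1 a CArG box at 47 and Mylpf an E-box at 51. Of 43 skeletal muscle genes with a window in the table, 17 (39.5%) held this E-box and 5 (11.6%) a CArG box, against 14.7% and 1.62% of all 27025 genes.

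Cardiac genes were lower in most cases, 7 of 9 tested with 1 higher (median −1.14, or −0.78 at bounds), and of the 6 bright in both groups 4 were lower and 1 higher. The alpha myosin gene Myh6 was at least 6.26-fold lower and the natriuretic peptide gene Nppa changed by −3.05 ± 0.26. Smooth muscle and myofibroblast genes moved less: 7 of 17 were lower and 2 higher, with a median of −0.20. Of 3 tested probes of Acta2, the actin of myofibroblasts, 1 other than the probe used passed as lower (−0.64) and another gave 0.31. On the probe used Acta2, among the most abundant transcripts here (7.97 at 20 days), did not pass the test (−0.15 ± 0.08, adjusted p = 0.112), though it was lower with quantile (−0.41), cyclic loess (−0.87) and normexp (−0.35) normalisation. Cnn1 (calponin) changed by 0.54 ± 0.16, a call lost under the same 3 normalisations, and Tagln by 0.26 ± 0.08, which turned to −0.44 under cyclic loess. Myh11, the smooth muscle myosin, was lower by a larger amount (−2.02 ± 0.18).

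**Figure D2:**
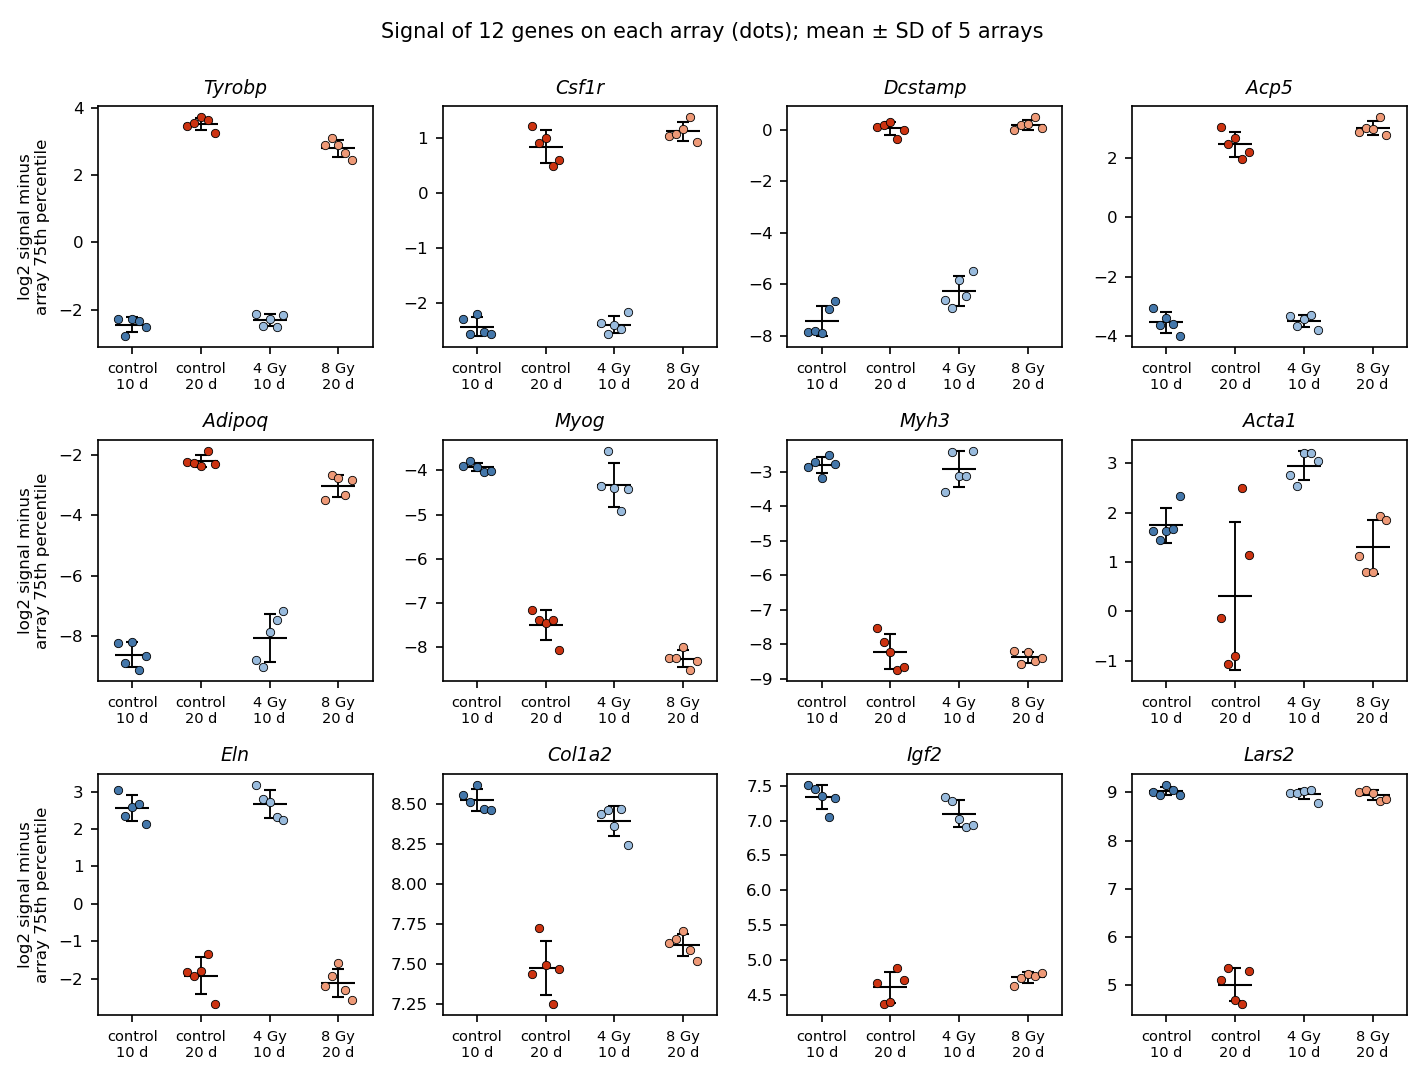
Signal of 12 genes on each array (dots, log2 relative to the 75th percentile; each panel has its own vertical scale) in the 4 groups of 5 arrays, with mean ± SD. Tyrobp, Csf1r, Dcstamp, Acp5 and Adipoq are higher on all 20-day arrays than on any 10-day array, Myog, Myh3, Eln, Col1a2 and Igf2 lower; Acta1 is split among the 20-day control arrays, and Lars2 is low in the 20-day control group alone.

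Matrix genes of fibroblasts were lower at 20 days. Of 26 fibrillar and related collagens with their processing enzymes, all bright in both groups, 23 were lower and 1 higher (median −1.05). Col1a2, a chain of type I collagen, measured 8.56, 8.52, 8.62, 8.47 and 8.46 at 10 days and 7.44, 7.72, 7.49, 7.25 and 7.47 at 20 days. All 20-day arrays were lower, by −1.05 ± 0.08 (adjusted p = 7.10e-10), while its partner chain Col1a1 changed by −0.38 ± 0.07 (adjusted p = 0.000108) on its brightest probe and by −2.50 and −2.23 on others, and Col3a1 by −0.76 ± 0.11. The brightest probes gave −1.55 for Col5a1, the fibril-initiating chain, with −2.57 on another, and lower signals for Col24a1 (−2.11) and the lysyl hydroxylase gene Plod1 (−1.67). The collagen processing enhancer gene Pcolce2 was the 1 member that rose (1.05).

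Elastic fibre genes were lower in 16 of 20 cases and higher in 2, with a median of −1.05 (15 and 2 of the 19 bright in both). Eln (elastin) had signals of 3.04, 2.34, 2.60, 2.66 and 2.13 at 10 days and −1.83, −1.93, −1.80, −1.34 and −2.68 at 20 days. Elastin was thus above the 75th percentile on all 10-day arrays and below it on all 20-day arrays, a change of −4.47 ± 0.24 (adjusted p = 7.53e-12). Fbn2, the fibrillin of embryonic tissue, changed by −3.02 ± 0.18 and the crosslinking enzyme gene Loxl2 by −2.21 ± 0.16. Efemp2, an elastic fibre assembly protein, was higher (0.59), a call lost with quantile or cyclic loess normalisation.

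Basement membrane genes were lower in 15 of 18 cases and higher in 1 (median −0.74; 14 and 1 of the 17 bright in both), with Lama1 at −3.07 and Col4a2 at −2.11. The 1 that was higher, Col4a4 (0.81 ± 0.28), had arrays that overlapped, and its call was lost with slide as a random block and without 20-day array 5. Of 18 proteoglycans and related proteins 12 were lower and 2 higher, with Fmod (fibromodulin) at −1.87 and Tnc (tenascin C) at −1.54. Of 18 TIMP and ADAMTS genes 12 were lower and 5 higher (11 and 5 of the 17 bright in both), and of 11 fibroblast integrins 6 were lower and 1 higher. The matrix metalloproteinases split, with 4 of 14 higher and 5 lower (3 and 2 of the 9 bright in both): Mmp12, the macrophage elastase, was at least 8-fold higher and Mmp9, a protease of macrophages and osteoclasts, rose by 4.31 ± 0.44, whereas Mmp2, made by fibroblasts, changed by −1.43 ± 0.15 and Mmp15 was at least 4.28-fold lower.

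Among the fibroblast markers, fibronectin (Fn1) changed most. It measured 6.35, 6.42, 6.29, 6.28 and 6.24 at 10 days and 3.87, 3.48, 4.00, 3.63 and 3.56 at 20 days, a change of −2.61 ± 0.09 (adjusted p = 1.22e-14) with other probes at −3.25 and −2.42. Vimentin (Vim) changed by −0.64, the growth factor receptor gene Pdgfrb by −0.60 and decorin (Dcn) by −0.33, the last lost with slide as a random block or median scaling. Thy1 did not pass (−0.27 ± 0.12, adjusted p = 0.0515). Lum (lumican) was higher (0.69), a call lost with quantile normalisation, and Pdgfra was higher by 0.62 on the probe used and lower by −0.34 on another. Pi16, a marker of a fibroblast subset in adult tissue, was lower (−2.21). Of 21 fibroblast identity genes 14 were lower and 3 higher, with a median of −0.60.

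Growth genes of the embryo were lower as a group. Of 14 imprinted growth genes 12 were lower and 1 higher (median −1.27), and of 11 genes of the insulin-like growth factor axis 10 were lower and none higher (median −0.96), all of them bright in both groups. Probes of some imprinted genes opposed each other: Gnas had −1.275 on the probe used and 1.03 on another, Grb10 −1.27 and, on others, −1.40 and 0.03. Other probes of Igf2 and Peg3 were lower too (−2.975 and −3.12). With the mean over the probes of a gene, 11 imprinted genes were lower. Igf2, the imprinted growth factor, had signals of 7.50, 7.46, 7.36, 7.05 and 7.33 at 10 days and 4.67, 4.36, 4.39, 4.88 and 4.70 at 20 days. It stayed far above the 75th percentile in both groups, without overlap, and changed by −2.74 ± 0.11 (adjusted p = 1.77e-13). The binding protein genes Igfbp5 and Igfbp3 changed by −3.53 ± 0.13 and −2.44 ± 0.18. Other imprinted genes were Peg3 (−3.05), Nnat (−2.17) and Dlk1 (−1.53), an inhibitor of fat cell differentiation. Sgce was higher (0.40), a call lost with quantile or cyclic loess normalisation.

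Patterning and signalling genes were lower more often than higher. Of 33 Hox genes, which give cells their position along the body axis, 19 were lower and 4 higher (median −0.32; 15 and 4 of the 28 bright in both); Hoxb13 was at least 7.52-fold lower and Hoxc5 changed by −2.44, while Hoxd13 (0.95) and Hoxb7 (0.77) were higher. Of 34 mesenchymal and limb transcription factors 18 were lower and 4 higher (16 and 4 of the 30 bright in both), with the limb factor gene En1 at least 2.48-fold lower. Of 20 Wnt ligands and antagonists 14 were lower and 2 higher (median −0.99; 10 and 2 of the 16 bright in both), among them the antagonist Dkk1 (−2.43) and the ligands Wnt4 (−1.59) and Wnt5a (−1.28), with Wnt16 higher (0.57). Of 26 BMP and TGF-beta genes 13 were lower and 4 higher (12 and 4 of the 25 bright in both); the ligand gene Bmp7 changed by −3.39 ± 0.13, the antagonist gene Nog by −1.90 and the inhibitory Smad7 by 1.20. Sox2, a factor of neural and pluripotent progenitors, was at least 6.75-fold lower.

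Other lineages gave mixed counts. Of 13 cartilage genes 9 were lower and 2 higher (median −0.88; 8 and 1 of the 11 bright in both), with type II collagen (Col2a1) at −1.66 ± 0.21 and matrilin 3 (Matn3) at −2.28 ± 0.26. Bone-forming genes were 4 higher and 4 lower of 10 (3 and 3 of the 8 bright in both); the probes of Runx2, the bone master factor, opposed each other (−1.91 on the probe used, 1.89 on another). Of 10 endothelial genes 5 were lower and 3 higher, and of the 6 bright in both 2 were lower and 2 higher. Vwf, the clotting factor of endothelium and platelets, rose by 2.08 ± 0.15 (2.07 on another probe). The cadherin gene Cdh5 was at least 2.17-fold lower and the receptor gene Kdr changed by −1.22, while Pecam1 was at background on all control arrays. Among epithelial genes (6 higher and 3 lower of 11; 5 and 2 of the 8 bright in both), Cdh1 (E-cadherin) was at least 3.52-fold lower.

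General cell functions moved less, apart from oxidative phosphorylation. Of 38 such genes, all bright in both groups, 33 were higher and 1 lower (median 0.84), among them Ndufb5 of complex I (1.97, 4 arrays at 20 days) and Sdhc and Sdhd of complex II (1.29 and 1.29). The number higher was 26 with quantile and with cyclic loess normalisation, 24 with normexp and 26 with slide means. Of 43 cytosolic ribosomal protein genes 25 were higher and 3 lower, with a median of 0.35 that turned to −0.25 under cyclic loess normalisation. Immediate early genes, which serum induces within minutes, were lower in 14 of 26 cases and higher in 2, with Egr1 at −2.17, Egr2 at −2.24 and Ier2 at −1.38. Of 33 mitosis genes 15 were lower and 5 higher (median −0.30), the kinesin gene Kif2c by −1.64 and topoisomerase Top2a by −1.17, against 0.66 for Kif20a. DNA replication genes were 11 higher and 12 lower of 33, near the shares of all genes.

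**Figure D3:**
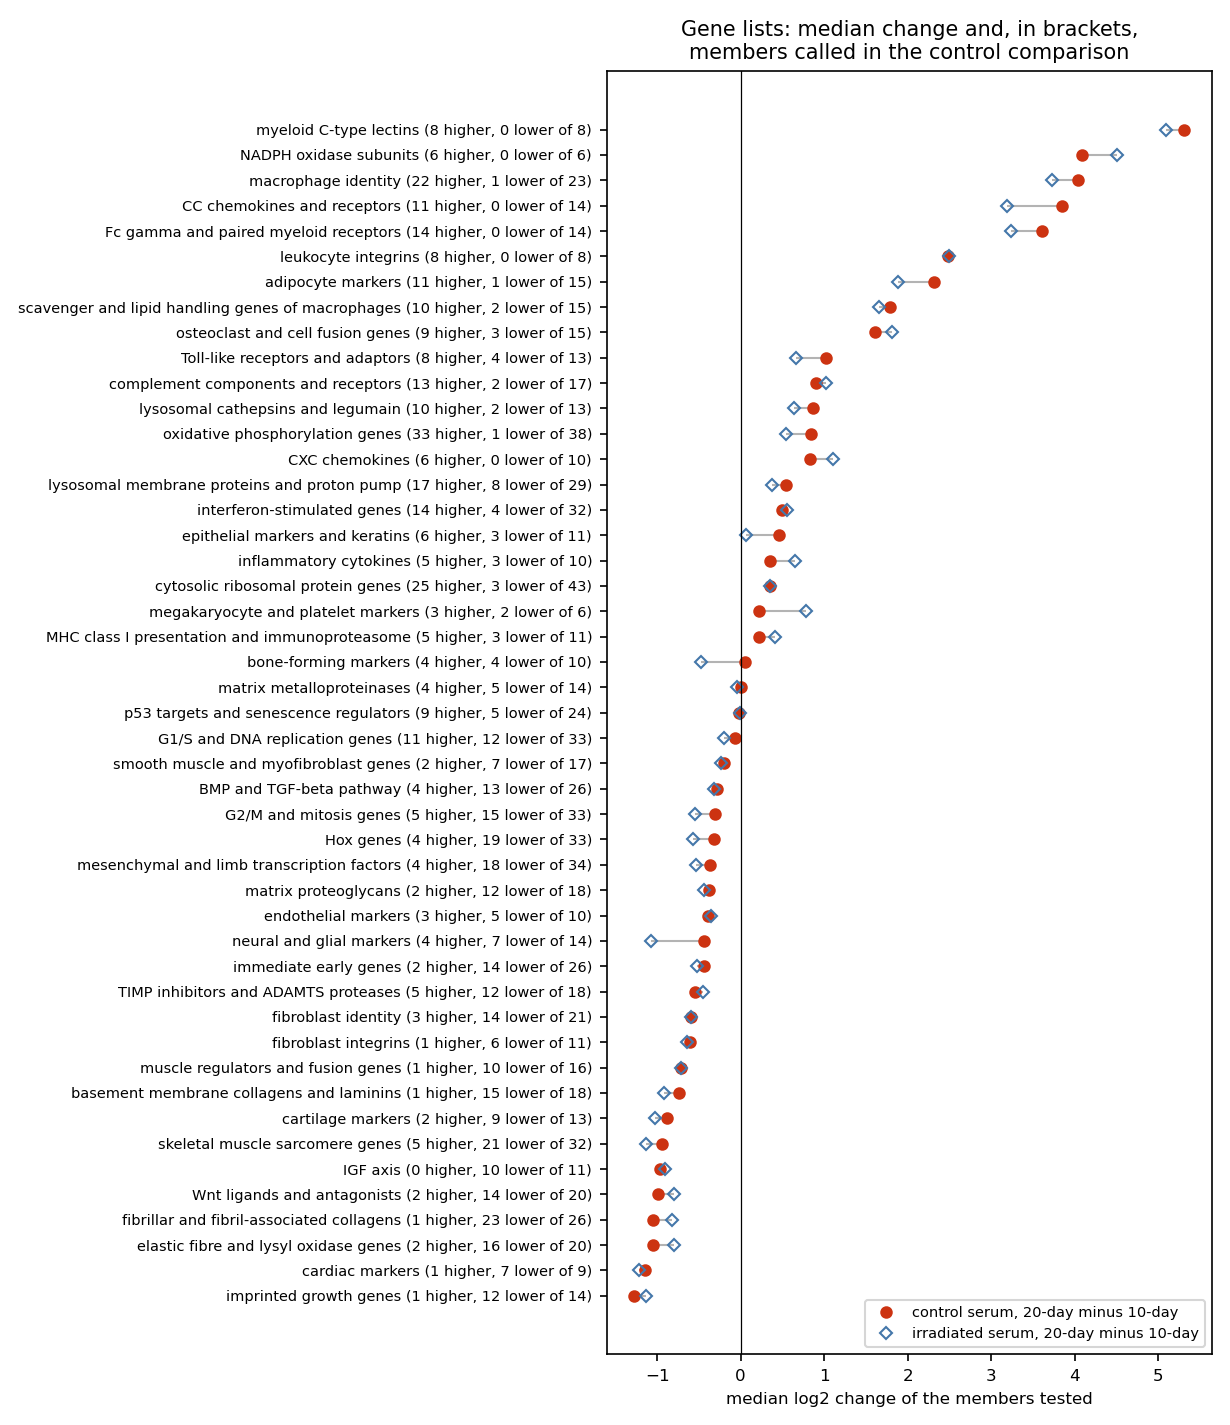
Median log2 change, 20-day minus 10-day, of the tested members of each gene list with at least 5 of them, in control serum (filled circles) and irradiated serum (open diamonds); brackets give the members called in control serum. Myeloid lists lie to the right in both comparisons, with medians of 2.49 to 5.32 in control serum for the 6 highest, and collagen, elastic fibre, muscle, IGF and imprinted lists to the left.

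The arrays with irradiated serum gave the same comparison on other arrays, though with a dose of 4 Gy in one set and 8 Gy in the other and with the same scan days. There, 11736 genes (58%) passed, 29.2% higher and 28.8% lower. Of the 2221 genes at least 2-fold higher in control serum 94.7% had the same sign in irradiated serum, as had 92.7% of the 2228 at least 2-fold lower, against 76.3% of all genes tested. Over all genes the correlation was 0.789, a description across genes that share arrays. The median of 52 of 54 lists with at least 2 tested members had the same sign in both. The macrophage list had a median of 3.73 in irradiated serum, the osteoclast list 1.81, the sarcomere list −1.13 and the fibrillar collagen list −0.83. Acp5 changed by 6.48 there, Eln by −4.76 and Igf2 by −2.35. Macrophage transcripts were thus higher in the 20-day set with either kind of serum.

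A smaller group of genes was low in the 20-day control arrays and not, or far less, in the arrays with 8 Gy serum. The difference between the comparisons, in either direction, passed the test for 6915 genes (34.2%). Among these were 2277 of the 5951 genes lower in control serum (38.3%) and 3331 of the 7474 higher there (44.6%). The control change enters both that call and this difference, so these shares cannot be read against the 34.2% of all genes. Genes that fell further in irradiated serum are included, so 2277 does not give the size of that smaller group. Lars2, the mitochondrial leucyl-tRNA synthetase, measured 9.01, 8.95, 9.16, 9.05 and 8.95 in 10-day control serum and 5.11, 5.36, 4.70, 4.62 and 5.30 in 20-day control serum. With irradiated serum it lay between 8.79 and 9.05 in both sets, so that the change was −4.01 ± 0.12 in control and −0.02 in irradiated serum (difference 3.98, adjusted p = 2.89e-11). Rn28s1, a gene of 28S ribosomal RNA that was added after its values were seen, changed by −4.89 ± 0.34 in control and −0.50 in irradiated serum; whether the probes of Lars2 and Rn28s1 bind other transcripts was not tested. Syt10, a synaptotagmin, changed by −7.47 ± 0.34 in control and −2.30 in irradiated serum (difference 5.17, adjusted p = 1.06e-06). Rusc1 had −5.41 and −2.24, with another probe at −0.60 in control serum, the transcription factor gene Tfap2e −5.37 and −1.64, and Klf2, a Krüppel-like factor, −3.54 and −0.51, with another Klf2 probe at −0.44 in control serum. These genes stand off the diagonal of the plot of both comparisons.

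**Figure D4:**
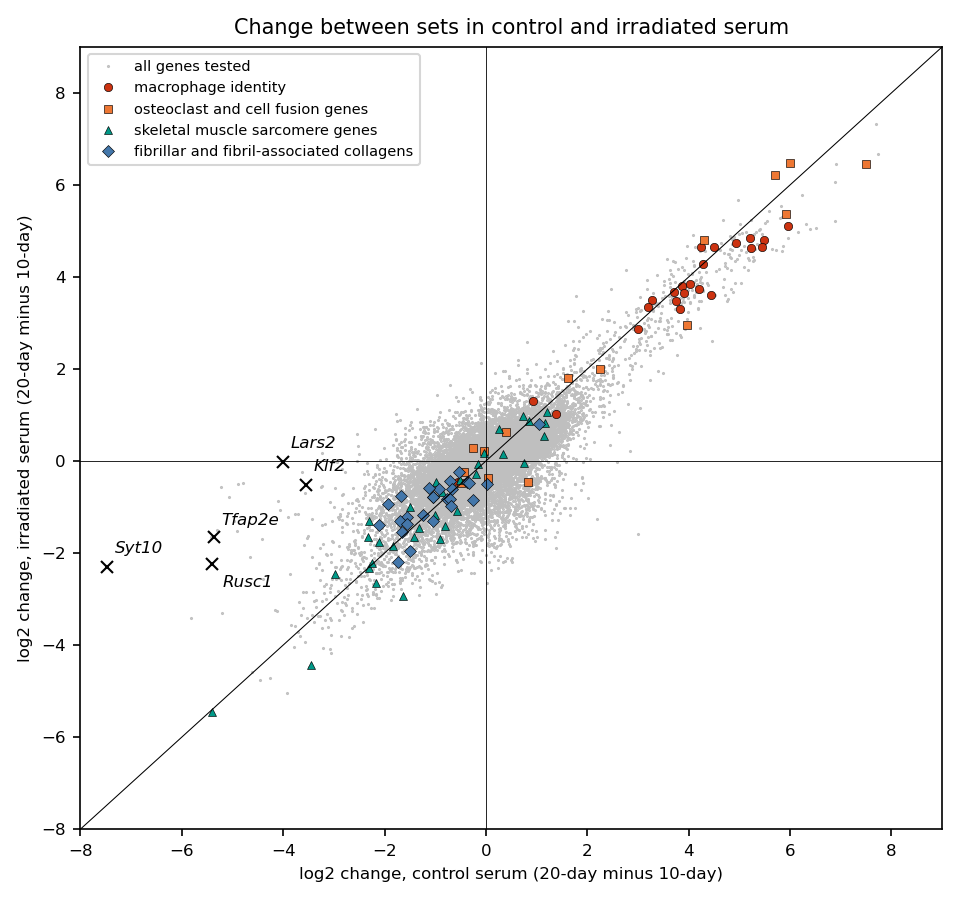
Log2 change, 20-day minus 10-day, of 20228 genes in control serum (horizontal axis) and irradiated serum (vertical axis), with 4 gene lists in colour, 5 genes as crosses and the line of equality. Most macrophage genes lie at the upper right and most sarcomere genes and collagens at the lower left, with exceptions such as Mertk, Tnnt1 and Pcolce2, while Lars2 is at −4.01 in control and −0.02 in irradiated serum.

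Within the 20-day control group the slides differed less than the sets. For the 13425 genes that passed, the median signed change from the 10-day mean was 0.78 on the 3 arrays of one slide and 0.76 on the 2 arrays of the other, but those genes were called on the same arrays. Over all genes tested, called or not, the change on the arrays of one slide had the sign of the difference between the sets for 93.7% and on the other for 89.9%, where both slides also enter that difference. The median absolute difference was 0.24 between these slides and 0.53 between the sets. The macrophage list had medians of 4.02 and 4.01 on the slides, the fibrillar collagen list −0.91 and −1.16 and the oxidative phosphorylation list 0.84 and 0.89. Treating slide as a random block left 11041 genes past the threshold, and with the means of 2 slides against 2 slides 8062.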

How the data were processed

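The authors deposited one Agilent scanner file per array, in which, per the file headers, probe signals are intensities from Feature Extraction 10.5.1.1 and the design follows build mm9; per the submitters' processing notes version 11.0 was used. The processed signal, which the authors' software had background-subtracted, was used as log2 intensity minus each array's 75th percentile, averaged over the spots of a probe. A value table of the series was not used here. Control spots were dropped, as were 50 to 181 spots per array that carried an outlier mark, and saturation was marked nowhere. Samples were grouped by their titles. Of 41174 probes, 24836 received a symbol (17174 genes) through RefSeq accessions, and 26231 that were well above background on all measured arrays of at least 1 group were tested. The brightest probe stood for a gene, which gave 20228 genes, 12906 with a symbol.

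All 20 arrays entered 1 fit of 4 group means (limma 3.58.1 in R 4.3.3, lmFit and eBayes), and p-values were adjusted by Benjamini-Hochberg over all genes tested. The procedure was tested on simulated data. A gene not well above background on any array of one group has only a bound there. "At least N-fold" sets the brighter group's mean against the dim group's mean of, per array, the higher of the lowest signal well above background and the probe's own. Summed markers add linear signals of the tested markers, so the brightest marker weighs most. Promoter letters come from RefSeq, build GRCm38.p6. Summaries and plots used Python 3.11.15 with pandas 2.3.3, numpy 2.4.6 and matplotlib 3.10.9.

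Genes were named by a rule: the 15 highest and 15 lowest changes among genes bright in both groups, the 10 highest bounds in each direction, in each list with at least 3 members past the threshold up to 4 in the more frequent direction and up to 2 in the other by p, and all cell type markers; not all of these are printed, and single probes or members that split were added after their values were seen. Members and the 55 gene lists were chosen with earlier results of these data known. Alternatives were another scaling, background correction, probe filter, probe choice or spot filter, slide as a block or as means, the replicate number as a block, the control arrays alone, and each array left out. Titles share replicate numbers, but deviations of same-numbered control arrays correlated by 0.04, 0.06, 0.10, −0.06 and 0.43, so the numbers were not taken as pairs.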

Additional observations from a re-analysis of the deposited data

Results flagged for a closer look

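The change between the sets in irradiated serum minus that in control serum, on the log2 scale, passed an adjusted p of 0.05 in the limma fit for 71 of the 170 genes named in the text, where 34.2% of all genes did. Many of these genes were named for a large change in control serum, which is subtracted here. That choice alone favours smaller changes in irradiated serum and a share above 34.2%, so neither is a result about these genes. The difference was negative for 36 genes that rose in control serum, Slc4a1 (−2.46), Cidec (−1.68), Col4a4 (−1.43), Hbb-bh1 (−1.41), Adipoq (−1.36), Hbb-bt (−1.26), Lrrc25 (−1.19), Cd200r1 (−1.14), Smad7 (−1.10), Clec4d (−1.04), Dcstamp (−1.03), Ocstamp (−1.01), Ccl4 (−0.98), Ndufb5 (−0.97), Mpo (−0.88), Bcl2a1b (−0.88), Sdhc (−0.86), Kif20a (−0.86), Tyrobp (−0.85), Sdhd (−0.84), Ptprc (−0.80), Hoxb7 (−0.74), Tlr4 (−0.73), Ly96 (−0.73), Ms4a6c (−0.72), Il18 (−0.72), Adgre1 (−0.68), Tnnc1 (−0.61), Lyz2 (−0.60), Cd14 (−0.52), Mpeg1 (−0.48), Hoxd13 (−0.47), Clec4a2 (−0.46), Pparg (−0.44), Sgce (−0.37) and Tnnt1 (−0.34). Most of these rose in irradiated serum as well, by a smaller amount; Hbb-bt fell there (−0.68), and Mpo, Slc4a1, Col4a4, Sgce, Hoxb7, Smad7 and Kif20a did not pass the test there. For Ccl6 (0.83) the rise was larger in irradiated serum. The difference was positive for 29 genes that fell in control serum, Syt10 (5.17), Rn28s1 (4.39), Lars2 (3.98), Tfap2e (3.72), Foxq1 (3.25), Rusc1 (3.16), Klf2 (3.03), Fam110a (2.87), Cyth4 (1.85), Hoxb13 (1.84), Hoxc5 (1.45), Itga2b (1.44), Vstm4 (1.34), Runx2 (1.30), Fbn2 (1.26), Col4a2 (1.14), Des (1.01), Kif2c (0.94), Plod1 (0.92), Fn1 (0.86), Peg3 (0.85), Mmp2 (0.73), Col24a1 (0.72), Mmp15 (0.70), Wnt5a (0.64), Nog (0.63), En1 (0.52), Gp1bb (0.51) and Dcn (0.44). Of these, Itga2b rose in irradiated serum (0.61), and Dcn, Lars2, Rn28s1, Foxq1 and Fam110a did not pass there. It was negative for Nppa, Cdh5, Egr1 and Egr2 (−1.12, −0.78, −0.75 and −0.64), which fell further in irradiated serum, and for Cd3e (−1.38), which passed only there. The adjusted p of these differences ran from 2.89e-11 for Lars2 to 0.0483 for En1. Genes dim in a group, such as Dcstamp, Adipoq and Cidec, enter these differences with signals near background, and Runx2 and Cyth4 with their brightest probe, which other probes opposed. Doses differed between the irradiated groups, so dose and days cannot be told apart in them.

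A single array stood apart from the other 4 in 17 of 343 groups of values checked by Dixon's criterion, where chance gives about 1 in 20. Array 5 of the 10-day control group, the one of that group on another slide, gave 8 of them, with signals of Mertk (−1.94), Acta1 (2.34), Des (−0.31), Cnn1 (5.35), Col4a4 (−0.00092), Tfap2e (5.91), Col2a1 (4.63) and Foxq1 (2.62). Array 2 of that group gave 3, Cd14 (−1.90), Trem2 (−1.47) and Plod1 (0.39). In the 20-day control group array 1 stood apart for Csf3 (−5.15), Sdhd (5.19), Kif20a (3.43) and Fxyd2 (−0.37), array 2 for Dcn (6.46) and array 4 for Itgb2 (−0.89). Without 10-day array 5 the number of genes that passed was 13043.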

How the results depend on the processing

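Of 170 named genes, 146 kept direction and call under all alternatives that tested them. Some genes dim in 1 control group were not tested under the filter on all 10 control arrays. The number of genes that passed was 12773 to 13759 with each control array left out, 12217 with the control arrays alone, 13114 with quantile and 13250 with cyclic loess normalisation, and 13440 and 13630 with the 20-day arrays of either slide alone, an alternative added after the data were seen. The replicate block, a pairing the arrays did not bear out, gave 13550 genes; array 5 alone correlated best with its own number. Slide means, 2 against 2, gave 8062 genes, 4551 higher and 3511 lower. With no filter on dim probes 11815 genes were higher, 4351 of them at least 2-fold, and the median change of all genes was 0.33. Scaling to the array median moved that median to 0.20, with 8645 genes higher and 4859 lower. Normexp gave 1189 genes at least 2-fold higher and 1185 lower. Among probes well above background on all 10 control arrays, 1325 genes were at least 2-fold lower, and the C-type lectins counted 5 higher, the adipocyte markers 6 higher and the sarcomere genes 9 lower, since fewer genes were tested. Signs turned for the median of ribosomal genes (−0.25, cyclic loess), Acta1 (0.086, 20-day arrays of 1 slide), Tagln (−0.043, quantile; −0.44, cyclic loess) and Cyth4 (1.61, mean over its probes); the cause was not tested. Of 1932 higher genes with another tested probe, 1096 (56.7%) had one called the same way and 372 one called the opposite way; among those at least 2-fold higher it was 363 (78.7%) and 23 of 461, and at least 2-fold lower 326 (86.7%) and 11 of 376. The lower signal of the 20-day arrays limits what can be said of genes near background there.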

Other observations

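Beyond the gene lists, the genes with the highest increases included further genes of myeloid cells. Slc9b2, a sodium-proton exchanger of osteoclasts, rose by 5.54 ± 0.13 to a mean signal of 3.49 at 20 days, well above the 75th percentile. The membrane protein genes Ms4a6c and Ms4a6d, expressed by macrophages, rose by 5.44 ± 0.15 and 5.14 ± 0.19, Igsf6 by 5.23 ± 0.19 and the survival factor gene Bcl2a1b by 5.10 ± 0.20; the Ms4a6 genes and Bcl2a1b have close relatives whose RNA a probe may also bind. Lrrc25 was at least 31.2-fold and the inhibitory receptor gene Cd200r1 at least 26.9-fold higher. Fxyd2, a regulator of the sodium pump best known from kidney, was at least 54.1-fold higher, with no array well above background at 10 days and all 5 so at 20 days. Those bright in both sets rose in irradiated serum too, by 4.21 (Bcl2a1b) to 5.23 (Igsf6).

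Among the genes that were lower, Mlc1, a membrane protein best known from astrocytes, changed by −3.84 ± 0.18, the secreted protein gene Scube1 by −3.44 ± 0.12 and Vstm4 by −3.42 ± 0.22 in control serum, and by −3.57, −3.34 and −2.08 in irradiated serum. Adamtsl2, a matrix protein that binds fibrillin microfibrils, was at least 14.7-fold lower in control serum. Foxq1, a forkhead factor gene, and Fam110a changed by −4.11 ± 0.46 and −3.57 ± 0.40 in control serum, and by −0.87 and −0.70 in irradiated serum, where neither passed the test. Cyth4 was lower by −3.52 ± 0.28 on its brightest probe, while its 3 other tested probes gave changes of 1.58 to 4.48, so no direction is given for the gene.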
